A study of Mus musculus with 2 samples.

Results

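The 10 genes described here are the CCN genes Ctgf, Cyr61, Nov, Wisp1 and Wisp2 and the matricellular genes Postn, Spp1, Thbs1, Thbs4 and Tnc, chosen by symbol from the 22882 symbols measured. All 10 members were found, each on 1 row of each library. The CCN family and the other matricellular proteins are secreted into the extracellular matrix, where they act mainly as signals between cells and matrix. They bind integrins, growth factors and their receptors, and most are scarce in healthy adult tissue and abundant during development, wound healing and fibrosis. In the heart they are known chiefly as products of fibroblasts and of stressed or stretched cells, and several are classical targets of transforming growth factor beta (TGF-beta) and of the stretch-sensitive coactivator YAP.

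RNA came from whole hearts of mice 23 days old, of both sexes, on a C57BL6/J background and without treatment. The control hearts were Med1fl/fl, with loxP sites in both alleles of Med1, the gene of a subunit of the Mediator complex that links transcription factors to RNA polymerase II. The csMed1-/- hearts carried the same floxed alleles and a Cre transgene driven by the alpha-myosin heavy chain promoter, which is active in cardiomyocytes, so other cells of the heart were not targeted. RNA of 5 hearts was pooled within each genotype, and 1 library of polyadenylated RNA was sequenced from each pool, so that no value below has a replicate, an error or a test. Levels are FPKM, fragments counted relative to transcript length and library size, which can be compared between genes because they are per length. A gene was kept when neither library listed it at 0 and the higher of its values reached 1 FPKM, and a difference was counted when it was past 2-fold.

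Med1 itself was at 3.38 FPKM in Med1fl/fl and 0.412 FPKM in csMed1-/- heart, giving a ratio of 0.122. The deposited FPKM summed to 780366 in the control and 716365 in the csMed1-/- library. Steps among low values would place the csMed1-/- library at about 1.39 times the depth of the control, if FPKM were scaled to library totals. Whether they were is not given in the sources used here. A value of 0 was not always the absence of a transcript. The cardiac actin gene Actc1 was listed at 0 in control heart and at 9189 FPKM in csMed1-/- heart, and 6 genes listed at 0 in control exceeded 100 FPKM in csMed1-/- heart. None of the 10 members was listed at 0 in either library.

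Of the 10 members, 7 were higher in csMed1-/- heart by more than 2-fold, none was lower by that much, and 3 were below 1 FPKM in both libraries. In control heart Ctgf and Cyr61 were the only members above 10 FPKM, and in csMed1-/- heart they were joined by Wisp2, Postn and Thbs4. Across all 10489 kept genes, 13.6% were higher and 18.0% were lower past 2-fold. Thbs1 and Tnc were kept only through their csMed1-/- value, so that their difference follows in part from the filter. The other 5 (Ctgf, Cyr61, Wisp2, Postn and Thbs4) were at 1 FPKM or more in both libraries, where 11.3% of 9160 genes were higher and 14.7% lower past 2-fold. Bulk RNA cannot tell a change in the number of cells of a type from a change in RNA per cell.

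**Figure D1:**
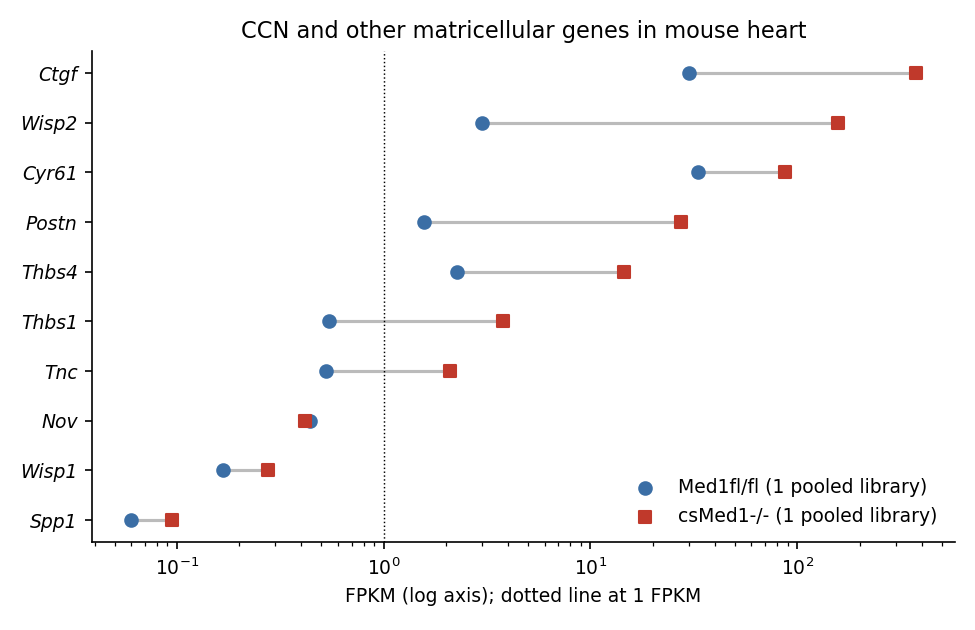
FPKM (log axis) of the 10 members in the pooled Med1fl/fl library (circles) and the pooled csMed1-/- library (squares), ordered by the csMed1-/- value, with a dotted line at 1 FPKM. The line joining both values is longest for Wisp2, from 3.001 to 158 FPKM, and Nov, Wisp1 and Spp1 lie left of 1 FPKM in both libraries.

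Ctgf (also named Ccn2) encodes connective tissue growth factor, a secreted protein that promotes matrix production by fibroblasts. It was at 29.99 FPKM in Med1fl/fl and 373 FPKM in csMed1-/- heart, giving a ratio of 12.4 (log2 3.64). Its place in the order of levels among all symbols moved from 2537 to 337, and its ratio was the 98th highest of the 10489 kept genes. In the GRCm38 annotation Ctgf lies on the plus strand of chromosome 10 from 24595442 to 24598683 and has 5 exons. An antisense non-coding gene, Gm15270, overlaps it. The paper describes the libraries as directional, but whether the authors counted reads by strand is not given in the sources used here.

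Wisp2 (Ccn5) encodes the short member of the family, which lacks the C-terminal cysteine knot domain of the other CCN proteins and has been described as opposing actions of Ctgf. It was at 3.001 FPKM in Med1fl/fl and 158 FPKM in csMed1-/- heart, giving a ratio of 52.7 (log2 5.72). That was the 13th highest ratio of all kept genes, and the 2nd highest of the 9160 genes at 1 FPKM or more in both libraries. The gene lies on the plus strand of chromosome 2 from 163820861 to 163833146. Its coding sequence has 251 codons, against 348 for Ctgf, 354 for Nov, 367 for Wisp1 and 379 for Cyr61, so within the CCN genes the largest ratio belonged to the shortest protein.

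The sequences of the study's own qPCR primers for Ctgf and Wisp2 are shown because they place a second assay on these mRNAs, whose measurements were not analysed here. All 4 match the reference transcripts without a mismatch, and the reverse primer of each pair crosses an exon junction (exons 3 and 4 of Ctgf, exons 4 and 5 of Wisp2). They are written 5′ to 3′ in lower case.
Ctgf forward, exon 3, chromosome 10 from 24596504 to 24596522: cttcccgagaagggtcaag
Ctgf reverse: cagtcggtaggcagctagg
Wisp2 forward, exon 4, chromosome 2 from 163829024 to 163829043: aatacaggtgccaggaaggt
Wisp2 reverse: agaaagttggtgtccttggg

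Cyr61 (Ccn1) is an integrin ligand and an immediate early gene that responds quickly to growth factors and stretch. It was the highest member in control heart, at 33.2 FPKM, and was at 87.6 FPKM in csMed1-/- heart, giving a ratio of 2.64 (log2 1.40). Its locus is chromosome 3, minus strand, 145646976 to 145649981. Of the 7 members past 2-fold it had the smallest ratio, and it was inside 4-fold. Ctgf was at 0.904 times the level of Cyr61 in control and at 4.26 times its level in csMed1-/- heart.

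Nov (Ccn3) and Wisp1 (Ccn4), which are integrin-binding family members best known from renal tumours and from Wnt signalling, were low in both libraries. Nov was at 0.439 FPKM in control heart and 0.417 FPKM in csMed1-/- heart, giving a ratio of 0.950, and it was the only member whose deposited value was lower in csMed1-/- heart. Scaling both libraries to the same sum turned its log2 ratio from -0.07 to 0.05, so no direction is given for it. Wisp1 was at 0.167 and 0.276 FPKM, a ratio of 1.65, inside 2-fold. Wisp3 (Ccn6), a CCN gene outside the 10 members, was at 0.0118 FPKM in control heart and listed at 0 in csMed1-/- heart.

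The summed level of the 5 CCN members was 66.8 FPKM in control heart and 619 FPKM in csMed1-/- heart, giving a ratio of 9.28. The make-up of that sum differed as well. Cyr61 held 49.7% of it in control and 14.1% in csMed1-/- heart. Ctgf held 44.9% and 60.2%. Wisp2 held 4.49% and 25.5%. Nov and Wisp1 together stayed below 1% of the sum in both. The family thus went from near parity of Cyr61 and Ctgf to a sum made up mostly of Ctgf and Wisp2.

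**Figure D2:**
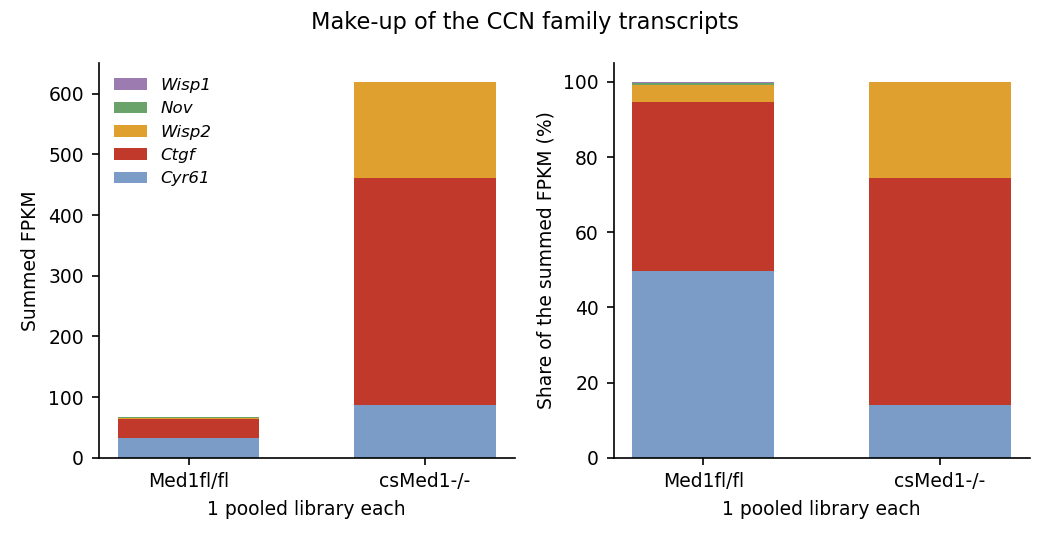
Stacked FPKM of the 5 CCN members in the 2 pooled libraries, as a sum (left, FPKM) and as shares of that sum (right, %). The sum is 66.8 FPKM in Med1fl/fl and 619 FPKM in csMed1-/- heart, and the Wisp2 share is 4.49% in the first and 25.5% in the second.

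Among the members outside the CCN family, Postn encodes periostin, which helps collagen fibrils assemble and marks activated fibroblasts. It was at 1.57 FPKM in Med1fl/fl and 27.4 FPKM in csMed1-/- heart, giving a ratio of 17.5 (log2 4.13) and the 66th highest of the kept genes. Postn lies on the plus strand of chromosome 3 from 54361109 to 54391037 and has 22 exons. After addition of a pseudocount of 1 FPKM, which lowers the ratios of low genes, its log2 ratio was 3.47. Tnc encodes tenascin C, a large matrix glycoprotein of embryonic and injured tissue. It was at 0.528 and 2.09 FPKM, a ratio of 3.96, and with the pseudocount its log2 ratio went from 1.99 to 1.02, just past 2-fold. The locus of Tnc is chromosome 4, minus strand, 63959785 to 64047015, and the non-coding gene 8030451A03Rik overlaps it on the other strand. Postn was at 2.96 times the level of Tnc in control and at 13.1 times in csMed1-/- heart.

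Thbs1 encodes thrombospondin 1, which can activate latent TGF-beta and binds the receptors CD36 and CD47. It was at 0.543 FPKM in Med1fl/fl and 3.79 FPKM in csMed1-/- heart, giving a ratio of 6.97, and adding the same pseudocount took its log2 ratio from 2.80 to 1.63. Thbs4 encodes thrombospondin 4, a form found in heart, muscle and tendon. It was at 2.27 and 14.5 FPKM, a ratio of 6.40 (log2 2.68). Thbs1 lies on the plus strand of chromosome 2 from 118111876 to 118127133, where the antisense gene Gm29233 overlaps it, and Thbs4 on chromosome 13, minus strand, from 92751590 to 92794818. The ratio of Thbs4 to Thbs1 was 4.17 in control and 3.82 in csMed1-/- heart, so the order of these genes was kept. The gene Spp1, which the annotated gene Gm42793 overlaps on the same strand, encodes osteopontin, a phosphoprotein of bone and of activated macrophages. It was at 0.0603 FPKM in control heart and 0.0947 FPKM in csMed1-/- heart, in the range where steps of single reads are visible, so that its ratio of 1.57 carries little weight. The 5 members outside the CCN family summed to 4.96 FPKM in control heart and 47.8 FPKM in csMed1-/- heart, giving a ratio of 9.64.

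From highest to lowest the control levels ran Cyr61, Ctgf, Wisp2, Thbs4, Postn, Thbs1, Tnc, Nov, Wisp1 and Spp1. In csMed1-/- heart the order was Ctgf, Wisp2, Cyr61, Postn, Thbs4, Thbs1, Tnc, Nov, Wisp1 and Spp1. Ctgf, Wisp2 and Cyr61 changed places at the top, and Postn passed Thbs4. With 1 library each, whether neighbours in these orders differ cannot be tested. All 10 together summed to 71.7 FPKM in control heart and 667 FPKM in csMed1-/- heart, giving a ratio of 9.30. Without Ctgf and Wisp2 the other 8 summed to 38.8 and 136 FPKM, a ratio of 3.51.

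**Figure D3:**
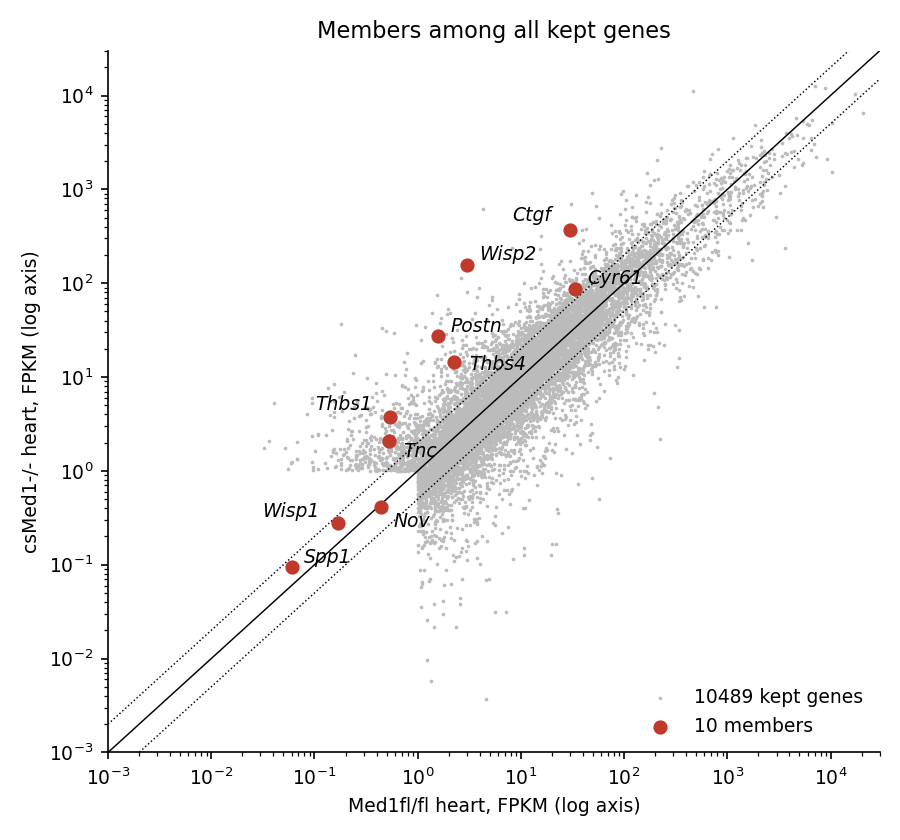
FPKM in Med1fl/fl (horizontal) against csMed1-/- heart (vertical), both on log axes, for 10489 kept genes (grey) and the 10 members (red). The solid line marks equal values and the dotted lines 2-fold, and the 7 members past the upper dotted line include Wisp2 with a ratio of 52.7, while Nov lies next to the solid line and Wisp1 and Spp1 lie between the lines.

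Promoter sequences are shown for 3 members that differed past 2-fold (Cyr61, Postn and Thbs4) and, for comparison, for Spp1, which was low in both libraries. The RefSeq table used (GRCm38.p6) matched 5 of the 10 members, namely Cyr61, Postn, Tnc, Thbs4 and Spp1. Ctgf, Nov, Wisp1, Wisp2 and Thbs1 were not matched. The 250 bases before the annotated start nearest to the 5′ end of each gene were searched on both strands for GGAATG (the core of TEAD sites, through which YAP acts), TGANTCA (AP-1), CAGACA (a SMAD element), the CArG box of serum response factor, and TATAAA. Capitals below mark every match, also where it was found on the other strand (CATTCC for the TEAD core, TGTCTG for the SMAD element).
Cyr61, chr3:145649986-145650235, minus strand: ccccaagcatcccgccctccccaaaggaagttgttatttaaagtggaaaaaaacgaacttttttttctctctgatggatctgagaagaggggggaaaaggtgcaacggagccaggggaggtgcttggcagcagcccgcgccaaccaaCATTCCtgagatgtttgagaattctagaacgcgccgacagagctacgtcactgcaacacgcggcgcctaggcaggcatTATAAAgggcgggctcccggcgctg
Postn, chr3:54360857-54361106, plus strand: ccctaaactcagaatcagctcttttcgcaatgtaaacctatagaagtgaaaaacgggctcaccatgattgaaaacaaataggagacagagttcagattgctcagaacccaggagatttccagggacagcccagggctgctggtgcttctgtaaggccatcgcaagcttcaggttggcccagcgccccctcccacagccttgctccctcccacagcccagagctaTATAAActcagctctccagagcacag
Thbs4, chr13:92794819-92795068, minus strand: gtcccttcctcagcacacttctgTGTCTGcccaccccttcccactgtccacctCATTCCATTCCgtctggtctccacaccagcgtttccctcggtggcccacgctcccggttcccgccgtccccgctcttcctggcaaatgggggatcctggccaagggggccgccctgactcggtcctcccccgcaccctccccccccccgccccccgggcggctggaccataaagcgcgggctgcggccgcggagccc
Spp1, chr5:104434861-104435110, plus strand: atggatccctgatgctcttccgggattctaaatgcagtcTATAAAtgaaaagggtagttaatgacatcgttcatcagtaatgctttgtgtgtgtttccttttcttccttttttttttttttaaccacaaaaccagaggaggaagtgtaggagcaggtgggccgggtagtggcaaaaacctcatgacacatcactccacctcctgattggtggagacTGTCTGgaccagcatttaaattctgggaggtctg

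The TEAD core was found 103 bases before the start of Cyr61 and, as a pair sharing 1 base, from 197 bases before the start of Thbs4. These letters occur in 12.6% of the 32851 promoter windows of the table. TATAAA lay 25 bases before the start of Cyr61 and 26 before that of Postn, and farther away in Tnc (126) and Spp1 (211), and 12.4% of all windows hold it. The SMAD element was found in Thbs4 and in Spp1, and in 17.1% of all windows. No AP-1 site or CArG box was found in the 5 windows, where 6.75% and 1.47% of all windows hold one. These matches are descriptions of the sequence, and a window without a match says only that the letters are not there.

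Relatives of the members were examined as 22 other matricellular genes, of which 16 were kept, 10 were higher and 2 were lower past 2-fold. Over all kept genes 13.6% were higher and 18.0% lower. The lower relatives were Vtn and Tnxb, and the estimate for Tnxb (4862 and 2098 FPKM) is doubtful. Tnxb overlaps 2 other annotated genes, and whether that bears on its estimate was not tested. The other members of the thrombospondin family were all higher by smaller ratios than Thbs1 and Thbs4. Thbs2 was at 5.95 and 13.3 FPKM (ratio 2.23), Thbs3 at 3.34 and 8.69 FPKM (2.60), and Comp, thrombospondin 5, at 3.64 and 9.98 FPKM (2.74). Smoc1, a calcium-binding relative of Sparc, had the highest ratio of this list, from 2.32 to 11.3 FPKM (4.87). Mgp, matrix Gla protein, an inhibitor of calcification, had the highest csMed1-/- level, at 2690 FPKM against 811 FPKM in control. Sparc, a collagen-binding matricellular protein, was at 580 FPKM in control heart and 1360 FPKM in csMed1-/- heart (ratio 2.35), and fibronectin (Fn1), to which several members bind, was at 17.1 and 44.4 FPKM (2.59). The lowest ratio was that of Vtn, vitronectin, at 44.8 and 16.5 FPKM (0.368). Sparcl1 and Smoc2 were at ratios of 0.627 and 0.569, so the family relatives did not all move in 1 direction. The median log2 ratio of the 16 kept genes was 1.30, against -0.0709 for all kept genes.

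Receptors that bind matricellular proteins were examined as 19 genes, of which 14 were kept, 8 were higher and 2 were lower past 2-fold. Over all kept genes 13.6% were higher and 18.0% lower. Of the 14 kept receptors, 11 were at 1 FPKM or more in both libraries, 5 of them higher and 2 lower. Among all genes at that level 11.3% were higher and 14.7% lower. The median log2 ratio was 1.41 over the 14 receptors and 0.54 over the 11. Itgb5 and Itga5, integrin subunits that bind vitronectin and fibronectin, were the most abundant of the higher ones, at 66.3 and 212 FPKM (ratio 3.21) and at 46.3 and 170 FPKM (3.67). Itgav, which pairs with Itgb5 and Itgb3, had the highest ratio, 6.08, from a low control level of 0.270 FPKM to 1.64 FPKM. Sdc4, a heparan sulfate coreceptor, was at 9.33 and 31.1 FPKM (3.34), and Cd44, a receptor of osteopontin, at 3.28 and 9.88 FPKM (3.01). Receptors that bind thrombospondins lay in both directions. Cacna2d1 was at 0.950 and 3.19 FPKM (3.36), kept only through its csMed1-/- value, and Lrp1 at 24.8 and 57.9 FPKM (2.33). Cd47 was at 20.9 and 8.78 FPKM (0.419) and Cd36 at 73.3 and 37.9 FPKM (0.517), the latter inside 2-fold. Itga6, a laminin receptor subunit that also binds Cyr61, had the lowest ratio, 0.397. Itgb1, the common partner subunit, was at 23.2 and 33.8 FPKM, inside 2-fold.

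Genes of TGF-beta signalling, a classical inducer of Ctgf, were examined as 18 genes, of which 16 were kept, 6 were higher and 1 was lower past 2-fold. The shares over all kept genes were 13.6% higher and 18.0% lower. Of the ligands, Tgfb2 was at 0.799 and 7.51 FPKM (ratio 9.40), Tgfb1 at 23.2 and 43.9 FPKM (1.89), and Tgfb3 at 7.10 and 14.3 FPKM (2.02). Ltbp2, an elastic fibre protein that belongs by name to the latent TGF-beta binding proteins, had the highest ratio of the list, 50.1, from 0.591 to 29.6 FPKM. Ltbp3 had the highest csMed1-/- level, at 85.7 against 21.9 FPKM. The signalling receptor Tgfbr2 was at 20.2 and 20.1 FPKM, and the coreceptor Tgfbr3 was lower, at 10.4 and 3.64 FPKM (0.351). Smad3 was at 9.90 and 6.07 FPKM and Smad4 at 10.1 and 7.32 FPKM, both inside 2-fold. The median log2 ratio of the 16 was 0.86. Tgfb2 and Ltbp2, below 1 FPKM in control, were kept only through their csMed1-/- value. Of the 14 genes at 1 FPKM or more in both libraries 4 were higher and 1 lower, with a median of 0.77. Among all genes at that level 11.3% were higher and 14.7% lower.

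Genes of the YAP-TEAD pathway lay mostly inside 2-fold, in both directions. Of 20 genes 17 were kept, 16 of them inside 2-fold, while 13.6% of all kept genes were higher and 18.0% lower past it. The only one past 2-fold was Crim1, a membrane protein and known YAP target, at 1.64 and 4.003 FPKM (ratio 2.45). The coactivators Yap1 and Wwtr1 were at 13.8 and 15.0 FPKM and at 6.70 and 9.35 FPKM. Ankrd1, a YAP target that cardiomyocytes also make in quantity, was at 103 and 125 FPKM (1.21), and Amotl2, another target, was at 20.8 and 36.5 FPKM (1.76). Amotl1, an angiomotin that holds YAP in the cytoplasm, had the lowest ratio, 0.526, and the kinases Lats1 and Lats2, which inhibit YAP, were at 0.555 and 1.70. Ctgf and Cyr61 are themselves the best known targets of this pathway, with ratios of 12.4 and 2.64. The median log2 ratio of the 17 was 0.17.

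Genes of serum response factor (SRF) and its actin-regulated coactivators, which also act on Ctgf and Cyr61, were spread more widely. All 16 were kept, 4 were higher and 2 were lower past 2-fold, with a median log2 ratio of 0.36. The shares over all kept genes were 13.6% higher and 18.0% lower. Cnn1, calponin of smooth muscle, was at 4.32 and 622 FPKM (ratio 144). Myl9, a smooth muscle myosin light chain, had the highest csMed1-/- level, at 102 and 624 FPKM (6.11), and Tagln was at 23.8 and 89.7 FPKM (3.77). Acta2, smooth muscle actin, a standard myofibroblast marker, was at 573 and 310 FPKM (0.541), inside 2-fold and in the opposite direction. Fhl2, a LIM protein abundant in cardiomyocytes, had the lowest ratio, 0.1001, from 1748 to 175 FPKM. Srf itself was at 58.0 and 74.3 FPKM.

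**Figure D4:**
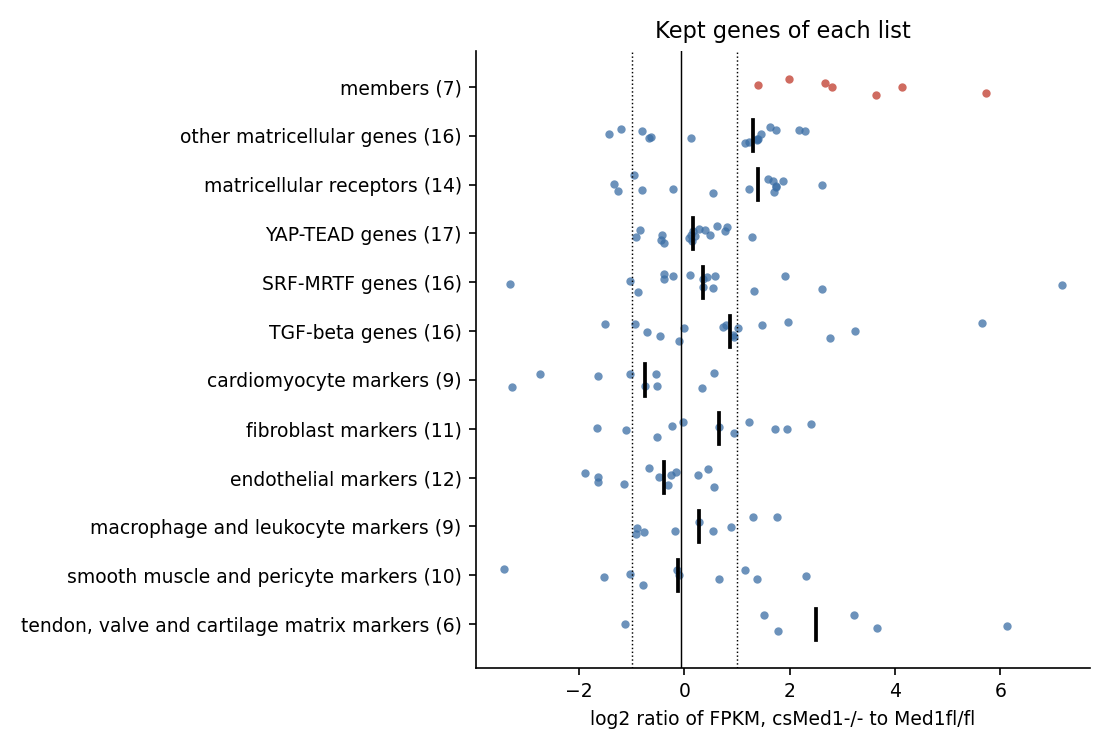
The log2 ratio of FPKM, csMed1-/- to Med1fl/fl, of each kept gene (points) in the members (red) and in each comparison list (blue), with the number of kept genes in brackets and the median of each comparison list as a black bar. The solid line is the median of all kept genes, -0.0709, and the dotted lines mark 2-fold. Between the dotted lines lie 16 of the 17 YAP-TEAD genes, whose median is 0.17. Past 2-fold, 13.6% of all kept genes were higher and 18.0% lower.

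Markers of the heart's cell types were read beside the members. The counts of each marker list stand beside 13.6% higher and 18.0% lower past 2-fold among all kept genes. Of 12 cardiomyocyte markers, Myh6 and Myh7 were not analysed here, Actc1 was listed at 0 in control, and of the 9 kept 4 were lower and none higher past 2-fold. The 10 with a row summed to 57805 FPKM in control heart and 37398 FPKM in csMed1-/- heart, or 28209 FPKM in the latter without Actc1. The 4 lower ones were Ryr2, at 84.6 and 8.70 FPKM (ratio 0.103, the lowest), Tnni3 (0.149), Myl2 (0.321) and Tnnt2 (0.491). Myl3 had the highest csMed1-/- level of the kept markers, at 17340 and 10278 FPKM (0.593). Actn2 had the highest ratio, 1.47, and Tnnc1 was at 1.25, both inside 2-fold. Of 13 fibroblast markers 11 were kept, 4 higher and 2 lower past 2-fold, with a summed level of 601 and 1404 FPKM and none at 0. Most of that difference was in collagen and fibril genes, Col1a1 at 129 and 502 FPKM and Mfap5 at 38.8 and 205 FPKM. Pdgfra, a receptor that marks resident fibroblasts, was at 4.09 and 4.03 FPKM, while Tcf21, a fibroblast transcription factor, was at 10.9 and 25.6 FPKM, and Dpt was lower at 41.3 and 13.1 FPKM. The part of cell composition in the members' differences was not tested.

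The 12 endothelial markers were all kept, none was higher and 4 were lower past 2-fold. They summed to 835 FPKM in control heart and 794 FPKM in csMed1-/- heart. Tek had the lowest ratio of the 12, 0.268, from 8.50 to 2.28 FPKM, and Esam the highest, 1.48. Eng had the highest csMed1-/- level, at 233 FPKM against 196 FPKM in control. Of 13 macrophage and leukocyte markers 9 were kept, 2 higher and none lower, with sums of 169 and 139 FPKM. The higher ones were S100a8, at 1.74 and 5.85 FPKM (ratio 3.36, the highest), and Cd14, at 9.44 and 23.1 FPKM (2.45). Fcgr1 had the lowest ratio, 0.529, and Lyz2 the highest csMed1-/- level, at 68.0 FPKM against 116 FPKM in control. Csf1r, a receptor of macrophages, was at 24.3 and 21.3 FPKM, beside the low values of Spp1. Of 10 smooth muscle and pericyte markers 3 were higher and 3 lower past 2-fold, with sums of 2176 and 5122 FPKM that were mostly Des, desmin, which cardiomyocytes share. Mcam, at 17.5 and 87.2 FPKM (ratio 4.98, the highest), Des (2.59) and Cspg4 (2.21) were the higher ones. Lower were Abcc9, at 26.2 and 2.44 FPKM (0.0930, the lowest), and Smtn (0.346). The paper groups Abcc9 with genes of energy metabolism, and which cells its RNA came from was not tested. Myh11, the smooth muscle myosin heavy chain, was also lower, at 3.68 and 1.79 FPKM (0.488).

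The genes nearest to Ctgf, Wisp2 and Postn were found by distance in the log2 FPKM of both libraries, which uses 2 values a gene. Nearest to Ctgf were Qsox1 (38.7 and 367 FPKM), Csrp1 (43.2 and 379 FPKM) and C1qtnf6 (36.2 and 269 FPKM). Nearest to Wisp2 were Slc16a3, a lactate exporter (2.61 and 115 FPKM), Slc7a5, an amino acid transporter (3.92 and 88.3 FPKM), and 2200002D01Rik (2.98 and 81.1 FPKM), at distances of 0.50 to 0.96 on the log2 scale. Nearest to Postn were Arid5a (1.69 and 28.7 FPKM), Ptk2b (1.90 and 28.5 FPKM) and 6330512M04Rik (1.72 and 21.6 FPKM). These are likenesses of level in 1 library a genotype.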

How the data were processed

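The deposited values are FPKM per gene symbol, 23424 rows in each of 2 libraries. The authors aligned 50 nt single-end reads to mm10 with TopHat2 2.0.8b and estimated known genes with Cufflinks and Cuffdiff 2.1.1; the submitters' processing notes also name STAR 2.4.0h, Bowtie2 and DESeq2 without a role. The library scaling is not given in the sources used here. Read counts were not used here, so the absolute depth and precision of each value are unknown.

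Rows sharing a symbol (412 symbols) were summed. The change is the plain ratio of csMed1-/- to Med1fl/fl FPKM, for genes that neither library listed at 0 and whose higher value reached 1 FPKM, called past 2-fold. With 1 library per genotype no test was made. Relative depth was read from the commonest ratio among rows at or below 0.15 FPKM in both, assuming that FPKM were scaled to library totals. The named genes are the 10 members, Med1, each list's highest and lowest ratio and highest csMed1-/- level, the 3 genes nearest to Ctgf, Wisp2 and Postn, and genes named by role; Actc1 and other genes given for comparison were added after their values were seen. The members and lists were chosen with earlier results of these data known. Positions, exons and codons are from GENCODE M21 (GRCm38), using the newer Ccn symbols; promoters are from RefSeq. The code was checked on control values with planted changes past the cutoff, which does not bear on the precision of the values here. Computation used Python 3.11.15, numpy 2.4.6, pandas 2.3.3 and matplotlib 3.10.9.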

Additional observations from a re-analysis of the deposited data

How the results depend on the processing

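Each member kept its side of 2-fold under all alternatives that gave it a value, apart from the 4-fold threshold, where Cyr61 and Tnc were inside. A pseudocount of 1 FPKM took Thbs1 from a log2 ratio of 2.80 to 1.63 and Tnc from 1.99 to 1.02, and left Wisp2 at 5.31 and Thbs4 at 2.25. For Ctgf and Cyr61 the largest move was scaling to a sum of 1000000, to 3.76 and 1.52. Only Nov, under scaling to a sum of 1000000, changed sign. That scaling moved every log2 ratio by 0.12. The share of higher genes among those past 2-fold ran from 40.4% to 50.7% over the scalings, against 43.0% as reported.
The number of members past 2-fold moved by less than 1.5 times under every alternative, and so did 125 of 154 counts over the members, the 5 related and pathway lists and kept genes, and 111 of 132 counts over the marker lists; the other 21 included endothelial markers lower (4 as reported, 2 at 10 FPKM) and fibroblast markers lower (2 as reported, 1 at 10 FPKM). With a pseudocount of 1, receptors lower numbered 1, YAP-TEAD genes higher 0 and SRF genes lower 1. With no filter but above 0, receptors lower numbered 4, YAP-TEAD genes 3 higher and 1 lower, and kept genes 2504 higher and 3182 lower. With 1 FPKM in both libraries 5 receptors were higher. With 10 FPKM in either library, receptors numbered 4 higher and 1 lower, YAP-TEAD genes higher 0, SRF genes lower 1, and kept genes 821 higher and 885 lower. Under centring on the median, the 75th percentile and a sum of 1000000, SRF genes lower numbered 1. Past 4-fold there were 2 higher and 0 lower of the other matricellular genes, 1 and 0 of the receptors, 0 YAP-TEAD genes higher, 2 and 1 of the SRF genes, 3 and 0 of the TGF-beta genes, and 453 and 539 of all kept genes; a stricter threshold by construction counts fewer. No paired analysis was possible because each genotype has 1 pooled library. For the same reason no replicate could be left out, and the variation between hearts cannot be estimated.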

Other observations

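Genes of tendon, valve and cartilage matrix, tissues where Thbs4 and Comp are also abundant, were read as a list of 12, of which only 6 were kept, 5 higher and 1 lower past 2-fold. Over all kept genes 13.6% were higher and 18.0% lower. Col9a2 and Sox9 were kept only through their csMed1-/- value. In both libraries 3 genes (Scx, Fmod and Prg4) were at 1 FPKM or more, all of them higher, against 11.3% of all genes at that level. Scx, a transcription factor of tendon and valve progenitors, was at 5.23 FPKM in Med1fl/fl and 65.8 FPKM in csMed1-/- heart (ratio 12.6). Fmod, fibromodulin, a collagen-binding proteoglycan, was at 2.95 and 27.6 FPKM. Col9a2, a chain of the cartilage collagen type IX, was at 0.246 and 17.1 FPKM (69.6), whereas its partner chains Col9a1 and Col9a3 were below 0.1 FPKM in both libraries, as were Col2a1 and Acan. Tnmd, the tendon membrane protein tenomodulin, was at 0.0455 and 0.0163 FPKM. Prg4, lubricin, was at 2.04 and 5.83 FPKM (2.86), Sox9, a cartilage and valve transcription factor, at 0.413 and 1.41 FPKM (3.41), and Chad, chondroadherin, at 1.23 and 0.561 FPKM, the 1 lower gene.

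Tnxb, tenascin X, was listed at 4862 FPKM in control heart and 2098 FPKM in csMed1-/- heart. In GRCm38 it spans chromosome 17 from 34670535 to 34719815 and overlaps 2 other annotated genes, Gm24389 and Cyp21a2-ps. How reads were divided among them was not tested, and the estimate is doubtful.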
